A study of Mus musculus with 2 samples.

Results

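Genes numbered Mir6896 to Mir7094 form a consecutive stretch of the mouse microRNA catalogue in which most hairpins are annotated inside introns of protein-coding genes. They were taken by symbol alone: a row belonged if its gene identifier carries a GENCODE M21 symbol in that number range, with any suffix. This gave 178 of the 1973 gene rows, for 176 of the 199 numbers in the range, and the other 23 numbers were not analysed here. Reads were counted in 2 microRNA-seq libraries of mouse hindbrain at embryonic day 15.5, strain B6NCrl, from pooled healthy male and female embryos without treatment. Tissue of 78 embryos went into replicate 1 and of 62 into replicate 2, and both carry the same donor label. There is 1 group only, with no control, other tissue or other age. The label gives a size range below 30, with no unit.

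A canonical microRNA is cut from its primary transcript by the Microprocessor, the complex of Drosha and Dgcr8, before Dicer releases the mature strands. A mirtron skips the first cut: splicing frees a short intron, the lariat is debranched, and the intron itself folds into the hairpin that Dicer cuts. In a tailed mirtron splicing sets only 1 end of the hairpin, and the tail on the other side has to be trimmed by nucleases. Mir877 and Mir1224 are textbook mirtrons of mammals. The short hairpins Mir320 and Mir484 also bypass the Microprocessor, but by another route that starts at the transcription start site.

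The libraries held 8327917 and 10507754 reads, of which 3937840 and 4839647 lay on the own strand of a microRNA gene. Levels are given in CPM, own-strand reads scaled to a library total of 1000000, as mean ± SD over the 2 libraries (n = 2). A count of 0 allows up to 3 reads, which is 0.762 CPM in replicate 1 and 0.62 CPM in replicate 2. Floors and intervals cover counting error only, since reads without molecular identifiers are not independent molecules. Of 7 microRNA genes fixed as hindbrain and neural markers, all 7 had reads, with summed levels of 99292 and 139871 CPM. Markers of other tissues were present as well: the endothelial Mir126a stood at 25702 and 22600 CPM and the liver gene Mir122 at 35.6 and 57.0 CPM. Of 4 striated muscle genes listed 3 had a row. Of these 2 were at 0 and 1 had 27.2 and 23.3 CPM. The epithelial genes summed to 468 and 540 CPM and the erythroid genes to 173 and 125 CPM. The 1 leukocyte gene with a row had 223 and 158 CPM. Their part in the results below was not tested. In pooled tissue, fewer cells of a type and less RNA per cell cannot be told apart.

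Hairpins of the class that lies end to end in an intron are shown first, because their letters carry the splice sites. The hairpin is the intron, so it begins with the 5′ splice site and ends with the 3′ splice site. In the RefSeq hairpins below (GRCm38.p6, written 5′ to 3′) the capitals mark these first and last 2 bases of the intron. The first 3 had reads here, Mir6923 and Mir7088 had none, and the textbook mirtron Mir877 is given beside them.
Mir6944: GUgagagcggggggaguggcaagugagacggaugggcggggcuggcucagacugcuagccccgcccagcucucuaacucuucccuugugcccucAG
Mir6958: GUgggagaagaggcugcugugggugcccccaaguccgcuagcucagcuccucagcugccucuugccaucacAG
Mir7068: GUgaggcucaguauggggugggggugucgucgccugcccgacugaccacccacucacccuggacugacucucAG
Mir6923: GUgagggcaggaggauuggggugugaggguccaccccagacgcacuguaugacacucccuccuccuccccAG
Mir7088: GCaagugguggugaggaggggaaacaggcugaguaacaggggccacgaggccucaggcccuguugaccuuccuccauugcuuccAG
Mir877: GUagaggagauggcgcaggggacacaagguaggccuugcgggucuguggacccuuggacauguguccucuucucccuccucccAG

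Mir6944 lies at chr13:55477681-55477776 and fills a 96-nt intron of Dbn1, which encodes drebrin, an actin-binding protein of dendritic spines. Mir6958 lies at chr15:89185465-89185537 and fills a 73-nt intron of Dennd6b, a gene of the DENN family of Rab regulators. Mir7068 lies at chr8:72470016-72470089 in a 74-nt intron of Cherp. In other transcripts of their hosts an exon overlaps Mir6958 and Mir7068. Mir6923 sits in Myh3, the embryonic skeletal muscle myosin heavy chain, and Mir7088 in Mst1. Mir7088 begins with GC in place of GU, the less common form of the 5′ splice site.

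In tailed hairpins only 1 end coincides with the intron's end, and the capitals below mark the 2 bases at that end. The first 3 have their tail on the 5′ side and end with the 3′ splice site, and the last 2 have it on the 3′ side and begin with the 5′ splice site.
Mir6928: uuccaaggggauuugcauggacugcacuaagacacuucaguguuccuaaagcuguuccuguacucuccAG
Mir6897: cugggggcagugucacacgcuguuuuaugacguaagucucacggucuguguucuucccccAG
Mir6934: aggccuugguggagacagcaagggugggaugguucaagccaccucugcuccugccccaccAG
Mir6977: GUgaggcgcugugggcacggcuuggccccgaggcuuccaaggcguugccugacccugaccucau
Mir6936: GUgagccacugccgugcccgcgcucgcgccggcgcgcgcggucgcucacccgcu

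The annotation does not bear out a description of these genes as mostly end-to-end mirtrons. A hairpin was called end to end where both its ends lay within 5 nt of the ends of a same-strand intron of at most 200 nt. This held for 15 of the 178 genes (8.43%), against 8 of the other 1795 rows. By far the most frequent arrangement was the 5′ tailed one: 150 genes (84.3%) ended at the 3′ end of the intron and began further inside it. Together these made 165 genes (92.7%) whose 3′ end lay within 5 nt of an intron's 3′ end, and in 164 of them the ends coincided to the base. Among the other 1795 rows 38 (2.12%) did so, 21 of them to the base. Only 1716 of these 1795 rows have an entry in GENCODE M21, and the rest could not be placed. Of all rows within 5 nt, 81.3% carry a number in this range. With a tolerance of 20 nt the number of end-to-end genes was 32.

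**Figure D1:**
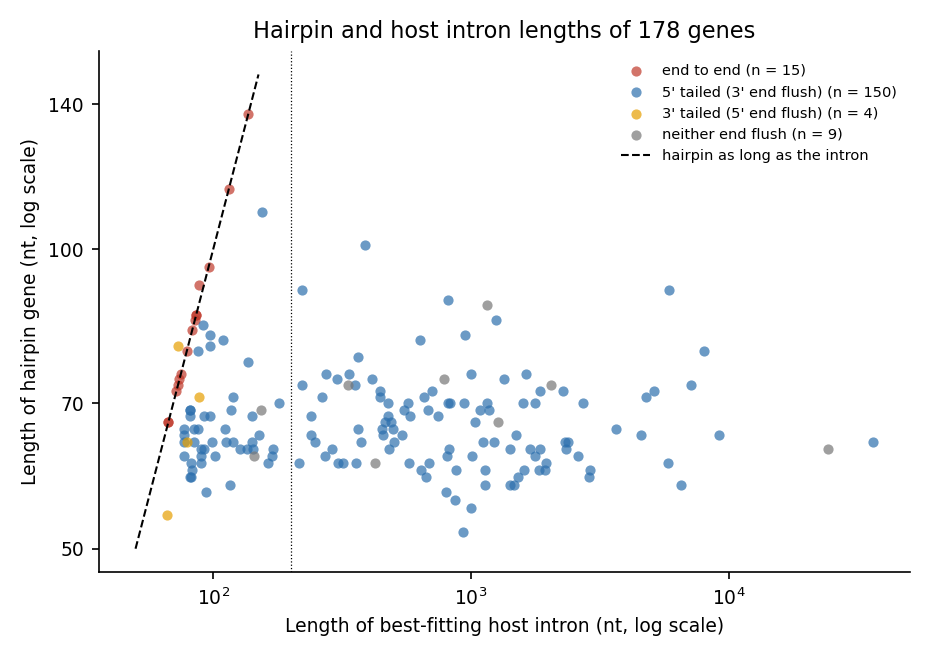
Length of each of the 178 hairpin genes (vertical axis, nt, log scale) against the length of its best-fitting host intron (horizontal axis, nt, log scale), with 1 point per gene coloured by position. The 15 end-to-end genes follow the dashed line of equal length, while the 150 5′ tailed genes spread to the right, past the dotted line at 200 nt.

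The hairpins themselves were short and alike in length, and the introns were not. Hairpin genes spanned 52 to 137 nt with a median of 66 nt, against a median of 85 nt in the 864 other rows with a numbered Mir symbol. Host introns ranged from 66 to 36269 nt with a median of 418 nt (quartiles 110 and 1138), and 67 of the 178 genes (37.6%) lay in an intron of at most 200 nt. In the 150 5′ tailed genes the tail had a median of 420 nt, from 7 nt up to the 36205 nt of Mir6899 in Klf7, a Krüppel-like transcription factor gene. Of these genes 46 lay in short introns and 104 in longer ones.

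The remaining 13 genes did not end at a 3′ splice site. In 4 of them the 5′ end of the hairpin met the intron's 5′ end. Mir6936 in Sirt7, Mir6977 in Ptprs and Mir6927 in Mllt6 left 3′ tails of 12, 15 and 17 nt, and Mir6973b in Gfra4 ran 7 nt past the intron. In the other 9 neither end lay within 5 nt, and in 6 of these the 3′ end overran the intron by 6 or 7 nt. Mir7051 in Etfb stopped 9 nt short of it. Mir7036b in Add1 and Mir7025, which begins in an exon of Pdgfra, ended far from a 3′ end. Among the 3 genes of the range with a lettered symbol, Mir6973a in Ltb and Mir6973b had no read and Mir7036b had 1 and 2.

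The 178 genes had 174 different hosts, and 177 of the 178 genes lay in a protein-coding host. The exception was Mir7094-2, annotated in an intron of the immunoglobulin segment Ighv1-5, with no read in either library. Mir7094-2 shares an exact stretch with Mir7094-1, and reads that match both loci are given to neither, so that its level may be understated. The hosts Cmip, Srebf1, Arap3 and Skiv2l held 2 of these genes each. The genes were spread over 19 chromosomes, most often 5 and 7 with 17 each and 11 with 16. In 39 genes an annotated exon overlapped the hairpin, in 38 of them an exon of the host itself. Some of these hairpins overran their own intron into the flanking exon, by 1 nt in Mir7010 and 4 nt in Mir7082. Exons of other transcripts were not separated from such cases, and the length of the overlap was not measured. Where an exon overlaps, reads of the hairpin and fragments of a spliced host transcript cannot be told apart.

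The ends of the hairpins carried the letters of splice sites. This largely restates their position at intron ends and is not separate evidence. AG ended all 15 end-to-end hairpins, 149 of the 150 5′ tailed ones and 1 of the 13 others. Of the 178 hairpins 165 ended in AG (92.7%), 143 of them in CAG and 20 in TAG, written as DNA. Of the other 1716 rows with a sequence 113 ended in AG (6.59%). A start with GT was seen in 13 of the 15 end-to-end hairpins, 9 of which began with GTGAG, and in 13 of the 150 5′ tailed ones. The last 20 bases were rich in pyrimidines, with a median of 70% (quartiles 65 and 75) against 50% in the other rows. A polypyrimidine tract usually precedes a 3′ splice site. GC content had a median of 57.8%, against 50% in the other rows.

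RefSeq (GRCm38.p6) entries matched 163 of the 178 genes by symbol, 161 of them with a hairpin, and these 161 had the same start and end as in GENCODE. They hold 312 mature sequences, and those of genes with the most reads are shown here because the arms take over the letters of the intron's ends. Capitals mark the seed, bases 2 to 8, by which a mature strand pairs with its targets.
mmu-miR-6944-5p: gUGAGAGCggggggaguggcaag
mmu-miR-6944-3p: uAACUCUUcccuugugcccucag
mmu-miR-6958-5p: gUGGGAGAagaggcugcugugg
mmu-miR-6958-3p: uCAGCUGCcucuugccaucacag
mmu-miR-6928-5p: aGGGGAUUugcauggacugcacu
mmu-miR-6928-3p: aAGCUGUUccuguacucuccag
mmu-miR-6897-5p: uGGGGGCAgugucacacgcuguu
mmu-miR-6897-3p: cGGUCUGUguucuucccccag
mmu-miR-6934-5p: uUGGUGGAgacagcaagggugg
mmu-miR-6934-3p: aCCUCUGCuccugccccaccag
mmu-miR-6977-5p: gUGAGGCGcugugggcacggcuugg
mmu-miR-6977-3p: aAGGCGUUgccugacccugacc

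Of 155 annotated 3p strands 119 (76.8%) stopped on the last base of the intron, against 22 of 467 (4.71%) in the other rows. Of 157 annotated 5p strands 15 started on the first base of the intron. Pyrimidines made up a median of 71.4% of the 3p strands (quartiles 65.2 and 77.3) and 31.8% of the 5p strands (26.1 and 39.1). In the other rows the medians were 54.5% and 50%. Guanine alone made up a median of 45.5% of the 5p strands and 14.3% of the 3p strands. These are properties of the annotated strands, since the deposited counts do not separate the arms.

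**Figure D2:**
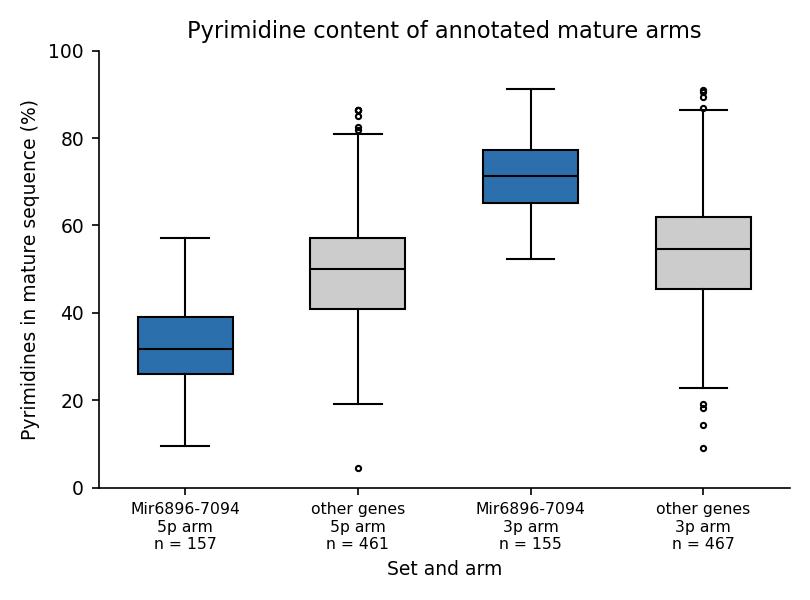
Pyrimidine content (%) of the annotated 5p and 3p mature strands of the Mir6896 to Mir7094 genes (blue) and of the other genes in the tables (grey). Boxes span the quartiles with the median as a line, whiskers reach 1.5 box lengths and points lie beyond; the median is 31.8% in the 157 blue 5p strands and 71.4% in the 155 blue 3p strands.

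Most seeds occurred in 1 gene only. The 312 strands had 287 different seeds, of which 21 occurred in more than 1 gene of the range and 34 in a gene outside it. These 21 seeds took in 45 of the 163 genes with a mature sequence. No seed occurred in more than 3 genes of the range, and 4 seeds occurred in exactly 3. The seed CACCCUG joins the 3p strands of Mir7018, Mir7023 and Mir7068, which lie in different hosts and had 3, 4 and 12 reads.
mmu-miR-7018-3p: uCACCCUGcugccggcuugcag
mmu-miR-7023-3p: uCACCCUGucugcgccccucag
mmu-miR-7068-3p: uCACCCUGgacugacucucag
The strands differ after the seed and share the final cag of the 3′ splice site. The 5p strand of Mir6958 has the seed of mmu-miR-30c-1-3p and mmu-miR-30c-2-3p, the minor strands of an abundant family.

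Most of these genes had a read, and few had many. At least 1 own-strand read over both libraries was found for 130 of the 178 genes (73.0%), against 32.9% of the other 1795 rows. Reads occurred in both libraries for 97 genes, in replicate 1 alone for 15 and in replicate 2 alone for 18, and 48 genes had none. At least 10 reads were reached by 44 genes (24.7%), against 23.7% of the other rows, and at least 100 by 1 gene. The other rows are a mixture: 931 of them have no Mir number, and 5.91% of these had a read and 2.26% at least 10. In the 864 with a Mir number the shares were 62.0% and 46.8%, so that against these the range had more genes with a read and fewer with at least 10. The median was 3 reads over both libraries. In 1 library alone 112 genes had a read in replicate 1 and 115 in replicate 2. No read of either library lay on the strand opposite to any of the 178 genes, while 67 of the other 1795 rows had such reads. With so few own-strand reads per gene in the range, no more is read from this.

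All 178 together held 775 reads in replicate 1, or 0.0197% of the own-strand gene reads (95% exact Clopper-Pearson interval 0.0183 to 0.0211), and 1064 in replicate 2, or 0.0220% (0.0207 to 0.0233). The mean was 0.0208% ± 0.00163 (SD, n = 2), or 208 ± 16.3 CPM. Without Mir6944 it was 0.0141% ± 0.000394. The 4 mirtrons Mir877, Mir1224, Mir702 and Mir1981 alone held 1.32 and 1.44 times the reads of all 178 genes. Of these, Mir702 overran the 5′ end of its intron by 9 nt and overlapped an exon of its host Plod3. Reads of Mir702 and fragments of that host transcript cannot be told apart. These 4 had 303 and 439, 216 and 341, 253 and 407, and 254 and 344 reads in replicates 1 and 2. The transcription-start hairpins Mir320 (2799 and 3320 reads) and Mir484 (6957 and 9234 reads) stood far above them.

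Along the numbering of microRNA genes, which follows the order in which they were registered, the range stood out by how many of its genes had a few reads. Genes numbered below 1000 had at least 1 read in 74.0% of 465 rows, about the share of the range studied here, but reached 10 reads in 65.8%. In Mir1000 to Mir2999 the shares were 51.2% and 35.4% of 82 rows, and from Mir3000 up to the range 45.9% and 23.9% of 222 rows. Above the range they were 50.5% and 16.8% of 95 rows. Of the 252 rows in the whole table with 1 to 9 reads, 34.1% belonged to Mir6896 to Mir7094, which make up 9.02% of the rows. The 50 rows of Mir3057 to Mir3113, of which 11 ended within 5 nt of an intron's 3′ end and 5 exactly there, had a read in 48 (96.0%) and at least 10 reads in 30 (60.0%). Only 3 of the 178 genes share an exact stretch of 20 nt or more with another microRNA gene, against 949 of the other rows, and reads placed at several loci are given to no gene. The part of such shared stretches in the shares of rows with a read was not tested, nor were the differences between number ranges.

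**Figure D3:**
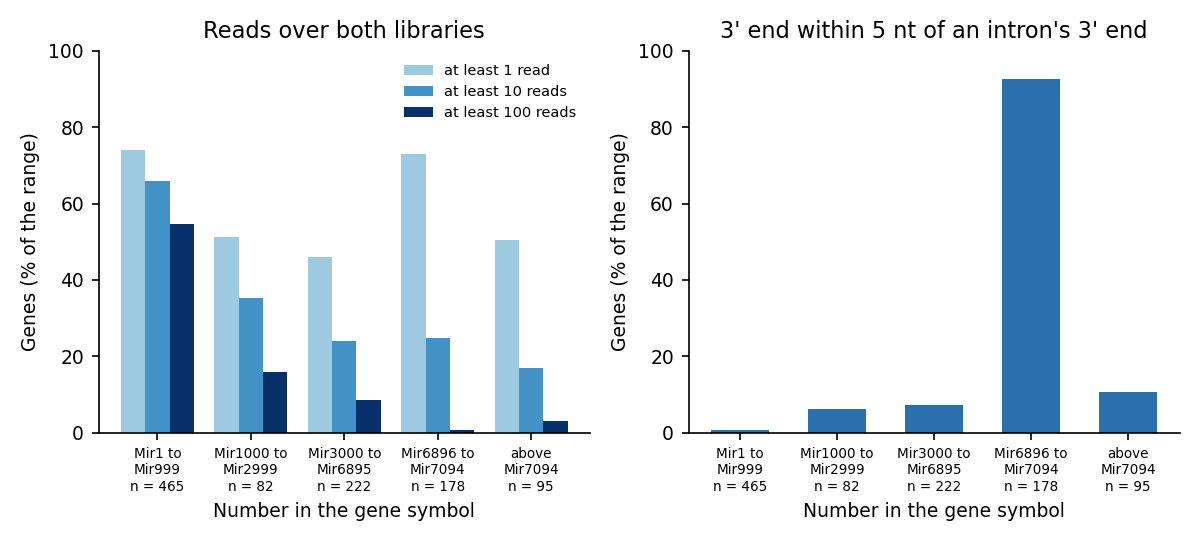
Left, share (%) of gene rows with at least 1, 10 or 100 own-strand reads over both libraries, by the number in the gene symbol; right, share of rows whose 3′ end lies within 5 nt of the 3′ end of a host intron. Mir6896 to Mir7094 match the lowest numbers in rows with at least 1 read (73.0% and 74.0%) but not in rows with at least 10 (24.7% and 65.8%), and 92.7% of them end with an intron.

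Mir6944 in Dbn1 was the highest of the 178 genes. It had 229 reads in replicate 1 (exact Poisson 95% interval 200 to 261) and 366 in replicate 2 (329 to 405), or 58.2 and 75.6 CPM (66.9 ± 12.4). It alone held 29.5% and 34.4% of the reads of the 178 genes, 9.54 and 10.2 times those of the next gene. Per 100 nt of hairpin it also ranked first, at 69.7 CPM against 9.67 for Mir6928. The textbook mirtrons Mir877 and Mir1224 had 83.8 ± 9.73 and 62.7 ± 11.04 CPM. The reads of Mir1224 lay within the counting interval of Mir6944 in both libraries, and those of Mir877 above it in both. Among all 1973 rows it ranked 229th and the next of the 178 genes 316th.

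Next came Mir6928, Mir6958 and Mir6897, which could not be ordered, as their counting intervals overlapped. Mir6928, a 5′ tailed hairpin in a 1151-nt intron of Atp6v0a1, which encodes a subunit of the vesicular proton pump, had 24 and 36 reads (6.77 ± 0.950 CPM). Mir6958, end to end in Dennd6b, had 24 and 32 reads (6.35 ± 0.366 CPM). Mir6897 had 19 and 30 reads (5.51 ± 0.971 CPM) at the end of a 1780-nt intron of Uggt1, the glucosyltransferase that checks glycoprotein folding in the endoplasmic reticulum. Each was higher in CPM in replicate 2, and none of these differences passed the test between libraries described below.

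**Figure D4:**
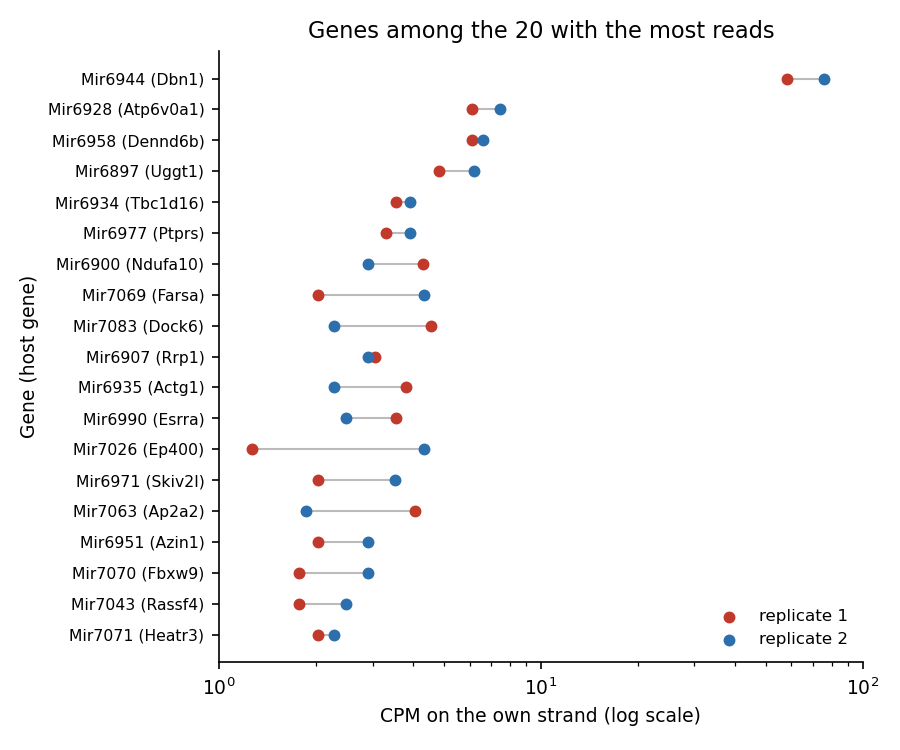
CPM on the own strand (log scale) of 19 of the 20 genes with the most reads, with the host gene in brackets; red points are replicate 1, blue points replicate 2, and the grey line joins them. Mir6944 stands apart at 58.2 and 75.6 CPM, and the other 18 have means of 2.13 to 6.77 CPM.

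The next genes of the first 20 had between 19 and 33 reads over both libraries. Mir6934 in Tbc1d16, a Rab GTPase-activating protein gene, had 14 and 19 reads. The 3′ tailed Mir6977 in Ptprs, a receptor tyrosine phosphatase that binds proteoglycans, had 13 and 19. Mir6900 had 17 and 14 in Ndufa10, a subunit of mitochondrial complex I. The counting intervals of these 3 genes overlapped in both libraries.

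Mir7069 in Farsa, a subunit of phenylalanyl-tRNA synthetase, had 8 and 21 reads. Mir7083 in Dock6, a guanine nucleotide exchange factor, had 18 and 11. Mir6907 in Rrp1, which acts in ribosome assembly, had 12 and 14. The order of these genes thus differed between the libraries.

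Mir6935, in the cytoplasmic gamma-actin gene Actg1, had 15 and 11 reads. Mir6990 in Esrra, an orphan nuclear receptor, had 14 and 12. Mir7026 in Ep400, a chromatin remodelling protein, had 5 and 21. Mir6935 and Mir6990 were higher in replicate 1, also in CPM, and Mir7026 was 1 of 13 among the first 20 that were higher in CPM in replicate 2.

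Mir6971 in Skiv2l, the helicase of the cytoplasmic exosome's Ski complex, had 8 and 17 reads. Mir7063 in Ap2a2, a subunit of the clathrin adaptor AP-2, had 16 and 9. Mir6951, the most AU-rich of the range with 25.3% GC, had 8 and 14 in Azin1, an inhibitor of antizyme. Their counting intervals overlapped in both libraries.

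Further genes of the first 20 were Mir7070 in Fbxw9 (7 and 14 reads), Mir7043 in Rassf4 (7 and 12) and Mir7071 in Heatr3 (8 and 11). Of the first 20 genes 16 were 5′ tailed, 3 end to end and 1 3′ tailed. Another 24 genes had 10 to 18 reads over both libraries, with at most 14 in any library, and 22 of them ended at a 3′ splice site. The 86 genes with 1 to 9 reads had at most 7 in a library. None of these 86 genes reached the minimum of the test between libraries.

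Genes with and without a read occurred in every position class. At least 1 read was found for 12 of the 15 end-to-end genes (80.0%), 33 of the 46 5′ tailed genes in short introns (71.7%) and 76 of the 104 in longer introns (73.1%). It was found for 2 of the 4 genes flush at the 5′ end and 7 of the 9 flush at neither. At least 10 reads were reached by 4, 13, 24, 2 and 1 of them. By length of the 5′ tail, genes with any read made up 69.7% of 33 with a tail up to 50 nt, 81.0% of 21 with 50 to 200 nt, 73.1% of 52 with 200 to 1000 nt and 70.5% of 44 with a longer tail. Genes overlapped by an exon had a read in 32 of 39 and the others in 98 of 139.

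The end-to-end genes held 281 and 436 reads, or 39.0% of all reads of the 178 genes, and 52 and 70 reads without Mir6944. An exon of the host overlapped 7 of these 15 genes: Mir6958, Mir7068, Mir7082, Mir6970, Mir7058, Mir7080 and Mir6981. Their reads cannot be told from fragments of a host transcript. Mir7082 overran its own intron by 4 nt, and the length of the exon overlap was not measured. Mir6944 had no such overlap. The counts do not separate the arms or other pieces of a hairpin. Fragments of the intron and mature strands thus cannot be told apart, in Mir6944 as in the other genes. Below Mir6944 and Mir6958 came Mir7070 (7 and 14 reads) and Mir7068 (7 and 5). Mir7082 in Raver1, a splicing regulator, had 1 and 6, Mir7060 in Fbrs had 4 and 2, and Mir6970 in Skiv2l had 2 and 3. Mir6970 shares an exact stretch with Gm27471, and reads that match both loci are given to neither, so that its level may be understated.

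Mir7091 in Dnase1l1 had 4 and 0 reads and Mir7058 in Lat, an adaptor of T cell receptor signalling, 0 and 3. Mir7018 in Hspg2, which encodes the basement membrane proteoglycan perlecan, had 1 and 2, and so had Mir7080 in Cpne7. Mir6981 in Arap3 had 1 and 1. Mir6923 in Myh3, Mir6974 in the lymphotoxin gene Lta and Mir7088 in Mst1 were at 0 in both libraries, which allows up to 3 reads in each. Host transcripts were not measured in these libraries, so no level of a host can be set beside its hairpin.

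The 150 5′ tailed genes held 461 and 585 reads, 56.9% of the total. Outside the range, 38 rows also ended within 5 nt of an intron's 3′ end; 29 of them (76.3%) had a read and 17 (44.7%) at least 10. The 4 textbook mirtrons are among these 38. Within the range the same counts were 121 and 41 of 165 (73.3% and 24.8%).

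The only comparison that the series allows is between its 2 pools. It was made gene by gene with an exact two-sided conditional binomial test after TMM scaling, with Benjamini-Hochberg adjustment over the 426 rows that had at least 10 reads in at least 1 library. It sets library against library, 1 on each side, and knows no error but that of counting. Of the 31 genes of the range that reached the minimum 3 passed at an adjusted p below 0.05, all higher in replicate 2, where 18.3% of all rows tested were higher and 34.5% passed in either direction. Mir6944 was among them, with a log2 ratio of replicate 2 over replicate 1 of 0.39 (95% interval 0.15 to 0.64; exact adjusted p = 0.00433, from 0.00324 to 0.00733 under the alternatives). Mir7026 had a log2 ratio of 1.79 (0.34 to 3.55; exact adjusted p = 0.0292). Mir6988 in Syvn1, a ubiquitin ligase of the endoplasmic reticulum, had 0 and 14 reads, a log2 ratio whose 95% interval starts at 1.45, and an exact adjusted p of 0.0011. Mir7026 and Mir6988 reached the minimum through replicate 2 alone, which favours that direction among genes entering this way, and no more is read from their number.

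**Figure D5:**
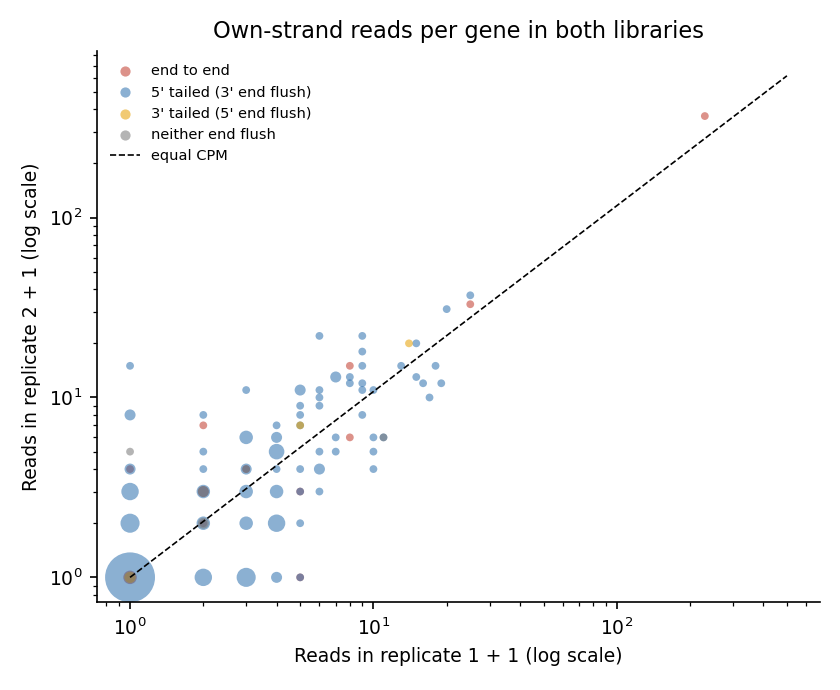
Own-strand reads per gene in replicate 1 and replicate 2, with 1 added and on log scales; the area of a point grows with the number of genes at that pair of counts and the dashed line marks equal CPM. Mir6944 lies at the upper right with 229 and 366 reads, and the points at the lower left corner hold the 48 genes without a read.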

How the data were processed

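MicroRNA-seq of 2 hindbrain libraries (1 group) was analysed. The authors deposited unnormalised read counts for each microRNA gene. Their readme names build mm10 and GENCODE M4; aligner and counter: not given in the sources used here. Column 3, which has the larger of the strand totals, served as own strand. Summary rows without a gene stayed out; among them reads at several loci made up 35.4% and 34.2% of the libraries. Symbols, introns and hairpin sequences came from GENCODE M21 (GRCm38). Introns of all transcripts on the same strand, small RNA genes excepted, were compared with each hairpin, and that with the least summed distance of the ends was used. Scaling used edgeR 4.0.16 (TMM) in R 4.3.3, and tests and intervals used Python 3.11.15 with scipy 1.17.1. The test was tried on simulated data with counting error only, as the test itself assumes. That trial therefore does not cover variation between pools. The rule for naming took the 20 genes with the most reads, the 10 end-to-end genes with the most reads, genes with a suffixed symbol and the 6 comparison genes; other genes named were chosen after their values were seen, and 1 of the 20 is not reported here. Alternatives changed tolerance, intron limit, hosts, strand, read minimum, scaling and libraries. Members and lists were chosen with earlier results of these data known.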

Additional observations from a re-analysis of the deposited data

How the results depend on the processing

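The count of 15 end-to-end genes stayed between 14 and 18 with tolerances of 0 and 10 nt, another intron limit, protein-coding hosts or basic transcripts only, and rose to 32 with 20 nt. The 165 genes flush with a 3′ intron end stayed between 164 and 173; these alternatives, and the basic transcripts, were added after seeing the data. The 130 genes with any read became 97 when a read was needed in each library and 44 when 10 reads were needed. They numbered 112 to 115 with either library left out, and the 12 end-to-end genes with a read 11. The share of gene reads was 0.0197% to 0.0220% with either library left out and 0.0141% without Mir6944; the fall comes from the removal of that gene. The count of rows that differed between the libraries, 147, stayed between 137 and 154 under other scalings and minimums. Mir6944 passed in all 4 alternatives. Mean CPM of 32 named genes moved by at most 0.517% under TMM or DESeq2 1.42.0 scaling. Both scalings were set to keep the geometric mean of the library sizes, so a mean over both libraries could hardly move. No paired analysis was possible because there is 1 group. Depth limits every gene of fewer than 10 reads: its order and its library difference were not detectable.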
